A study of Mus musculus with 16 samples.

Results

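Collagens are the most abundant proteins of the extracellular matrix, and the quadriceps messenger RNA data described here hold 44 collagen genes among 19108 gene symbols. They were taken by name, as every symbol made of "Col", a type number, "a" and a chain number, and they cover 27 collagen types. The study asked how skeletal muscle responds to mitochondrial stress caused by extra ANT1, the adenine nucleotide translocase (gene Slc25a4) whose protein moves ADP into mitochondria and ATP out. The 4 groups were C57BL/6 mice aged 6 months, with 4 muscles each: females with the ANT1(Tg)/+ genotype (Tg), wild-type (WT) females, Tg males and WT males. Controls were matched for age and were littermates where possible. The promoter that drives the transgene is not given in the sources used here. The RNA came from whole quadriceps, so it holds muscle fibres together with the fibroblasts, vessels, nerves and fat between them.

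Every collagen is built from chains that wind into helical trimers, which assemble outside the cell. Fibrillar collagens (types I, III, V, XI, XXIV and XXVII among the genes tested here) form the cables that carry load, and fibril-associated collagens sit on their surface. Type IV forms the sheet-like network of the basement membrane around each muscle fibre and capillary, and type VI forms beaded filaments next to it. In muscle most collagen RNA is made by fibroblasts rather than by the fibres, and loss of type VI chains causes muscle disease in humans.

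The genes of the type IV chains that form the common basement membrane trimer, Col4a1 and Col4a2, are shown with their promoters because they lie head to head and their RNA levels were correlated across the mice, as given below with the correlations. Both sequences are RefSeq windows of build GRCm38.p6 that run from 250 bases before to 50 bases after the annotated gene start. The Col4a1 window is chr8:11312777-11313076 on the minus strand and the Col4a2 window is chr8:11312555-11312854 on the plus strand. Capitals mark the 78 bases that the windows share, read on opposite strands.
Col4a1: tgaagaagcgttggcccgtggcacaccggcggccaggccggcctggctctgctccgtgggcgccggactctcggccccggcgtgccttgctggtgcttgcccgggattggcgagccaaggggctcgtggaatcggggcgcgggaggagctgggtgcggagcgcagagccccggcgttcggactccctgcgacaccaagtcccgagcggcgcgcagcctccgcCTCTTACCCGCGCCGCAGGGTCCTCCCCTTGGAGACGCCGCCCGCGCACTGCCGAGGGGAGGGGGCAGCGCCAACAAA
Col4a2: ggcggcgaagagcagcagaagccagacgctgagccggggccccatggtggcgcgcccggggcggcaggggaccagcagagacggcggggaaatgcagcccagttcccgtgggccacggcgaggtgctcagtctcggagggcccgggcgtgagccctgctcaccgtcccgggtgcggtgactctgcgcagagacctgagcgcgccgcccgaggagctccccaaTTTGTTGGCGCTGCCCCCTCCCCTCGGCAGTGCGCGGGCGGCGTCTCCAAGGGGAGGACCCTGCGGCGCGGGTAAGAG
The window of Col7a1, the chain of the anchoring fibrils and a gene that was lower in Tg mice of both sexes, is chr9:108953336-108953635 on the plus strand. Capitals mark a CCAAT box, read on the opposite strand, and a GC box.
Col7a1: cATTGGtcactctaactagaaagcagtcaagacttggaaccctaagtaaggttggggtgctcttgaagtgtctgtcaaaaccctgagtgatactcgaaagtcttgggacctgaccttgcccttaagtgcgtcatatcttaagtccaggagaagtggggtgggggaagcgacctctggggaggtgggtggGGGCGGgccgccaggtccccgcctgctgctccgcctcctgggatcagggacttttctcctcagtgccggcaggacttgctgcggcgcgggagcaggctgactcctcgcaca

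Of the 44 genes, 35 had such a window, and 4 short motifs were searched on both strands. The GC box GGGCGG was in 22 of the 35 collagen windows, or 62.9%, against 38.2% of 27025 genes with a window. The CCAAT box (CCAAT) was in 13 of the 35 against 41.1% of all genes, and the TATA box (TATAAA) was in 5 of the 35 against 15.7%. The core of the ATF4 response element, TGATGNAA, was in 0 of the 35 and in 4.51% of all genes. The windows of Col4a1 and Col4a2 each held the CCAAT box and the GC box. These matches describe the letters of the windows only.

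Libraries held 17435895 to 30680324 counts, of which collagen genes took 0.079 to 0.241%. Slc25a4 had 9755 ± 876 CPM (counts scaled for library size) in Tg muscle and 3399 ± 408 CPM in WT muscle (SD, n = 8 each), 2.88-fold higher in Tg, and no Tg library fell among the WT libraries. The summed CPM of 14 muscle fibre markers ranged from 207240 to 288306 in Tg (median 232395) and from 212847 to 328236 in WT (median 277931). In 4 libraries the summed RNA of 15 adipocyte markers was highest, at 3765 CPM in WT female 2, 3634 CPM in WT male 1, 3001 CPM in WT female 1 and 1869 CPM in Tg female 4, against 209.9 to 1419 CPM in the other 12. Without them 3 Tg female, 2 WT female, 4 Tg male and 3 WT male libraries remain. Calls that change without these 4 libraries are given beside the results. In whole tissue, fewer cells of a type and less RNA per cell cannot be told apart.

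Types IV, VI, I, III and V made up most of the collagen RNA. To compare genes, CPM were divided by the length of each gene's exons in kilobases and summed by type. Together these types took 80.3 to 88.7% of the collagen RNA per length in each library. Type IV took 26.98% ± 3.03 (SD, n = 16), type VI 19.2% ± 1.29, type I 16.0% ± 2.85, type III 13.5% ± 2.66 and type V 9.58% ± 1.07. The ranges over libraries overlapped between types VI and I, I and III, and III and V, and the order depends on the length used: with the longest transcript of each gene, type IV took 22.1%, type I 20.3%, type VI 18.05%, type III 17.9% and type V 8.44%. Type XV, a collagen of the outer basement membrane zone, came next at 4.00%.

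Per exon length Col4a1 had the highest mean of the single genes, at 24.97 ± 6.43 CPM per kilobase (SD, n = 16). Col3a1, the chain of the thin reticular fibres, had 24.4 ± 10.1 CPM per kilobase, and Col4a2 had 19.7 ± 4.25. Col6a1 had 18.7 ± 4.48, Col1a1 14.8 ± 5.15 and Col1a2 13.3 ± 4.45 CPM per kilobase. These neighbours differed by less than their spread between libraries, and their order depends on the length used. With the longest transcript Col3a1 came first, at 43.0 ± 17.8 CPM per kilobase, ahead of Col1a2 with 30.99 ± 10.3 and Col4a1 with 28.2 ± 7.26.

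At the other end, 6 genes had too few counts to be tested. These were Col2a1, Col9a2, Col9a3 and Col10a1, which are collagens of cartilage, the type VI chain gene Col6a4, and Col25a1, a transmembrane collagen of muscle that in mice takes part in innervation. Their means lay between 0.00583 and 0.255 CPM, and Col10a1 had 1 count in all Tg libraries together and 1 in all WT libraries together.

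**Figure D1:**
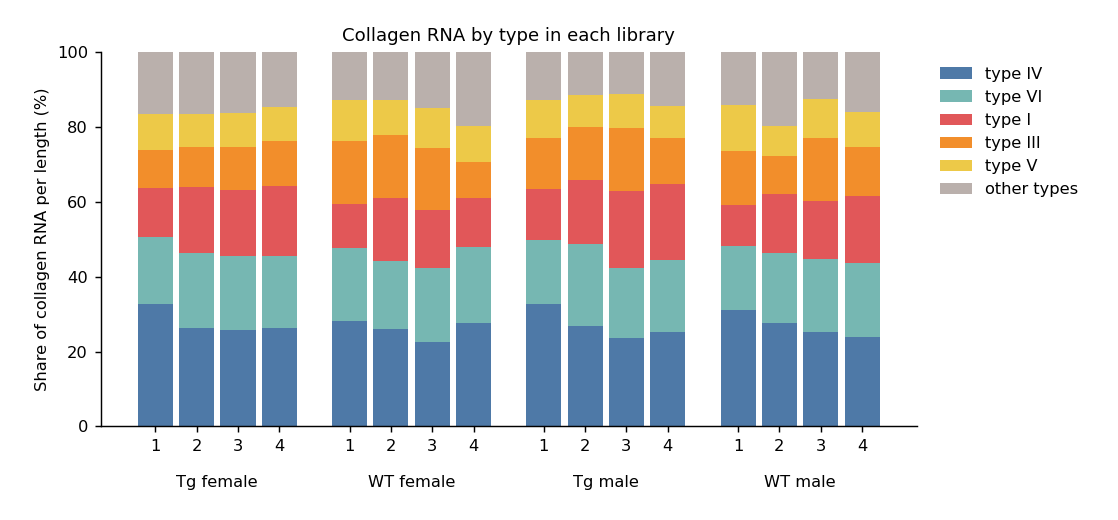
Share of collagen RNA per exon length by collagen type (percent, vertical axis) in each of the 16 libraries, grouped by sex and genotype. The 5 named types fill 80.3 to 88.7% of every bar, with type IV the largest part.

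The shares of the types overlapped between the genotypes. Type I took 17.3% ± 2.77 of collagen RNA per length in Tg muscle and 14.7% ± 2.40 in WT muscle (SD, n = 8 each), and type III took 12.6% ± 2.19 in Tg and 14.3% ± 2.97 in WT. Type IV took 27.4% ± 3.45 in Tg and 26.55% ± 2.70 in WT. The shares were not tested. The sum over all collagen genes was 1319 ± 285 CPM in Tg and 1446 ± 409 CPM in WT. By sex it was 1145 ± 253 CPM in Tg females and 1536 ± 543 CPM in WT females, and 1492 ± 212 CPM in Tg males and 1356 ± 272 CPM in WT males (SD, n = 4 each).

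The main comparison asked which collagen genes the transgene changed, averaged over the sexes. Of 38 tested collagen genes, 7 changed: Col20a1 and Col23a1 were higher in Tg muscle, and Col9a1, Col7a1, Col22a1, Col24a1 and Col19a1 were lower. None of them belongs to the abundant types I, III, IV, V or VI, and 3 of the 5 lower ones are fibril-associated collagens. Calls were made with edgeR's quasi-likelihood test at a Benjamini-Hochberg adjusted p under 0.05 over all 13666 tested genes. The 7 calls are 18.4% of the family, against 30.4% of all tested genes (17.2% higher and 13.3% lower). The median log2 fold change was -0.08 over the collagen genes and -0.01 over all genes. Tg and WT libraries did not overlap within either sex for 3 collagen genes, Col20a1 (higher) and Col7a1 and Col9a1 (lower), against 10.8% of all genes (6.89% higher and 3.94% lower).

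**Figure D2:**
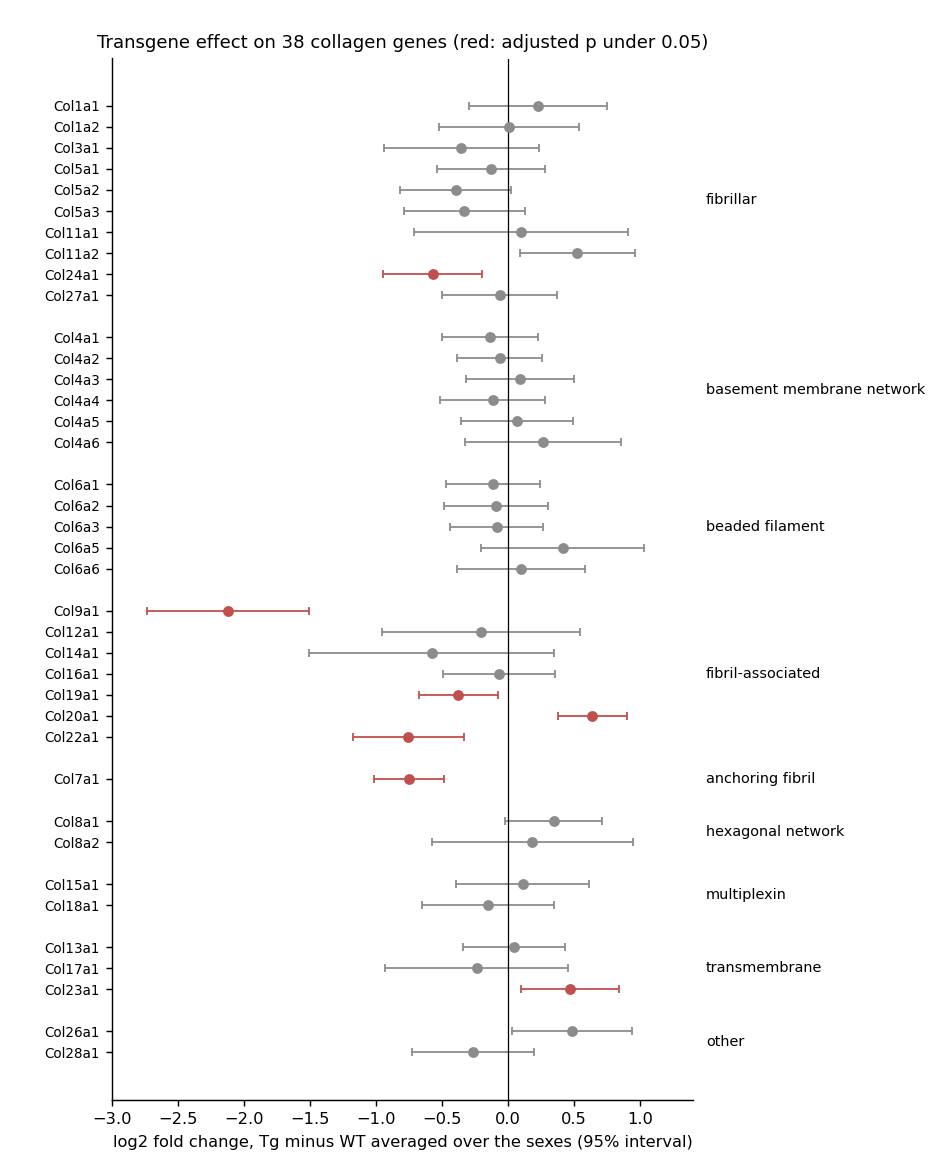
Log2 fold change of the 38 tested collagen genes, Tg minus WT averaged over the sexes (horizontal axis), with 95% intervals and grouped by structural class. The 7 red genes passed the threshold. Genes of the basement membrane network and beaded filament classes all have intervals that include 0.

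Counts by class stand beside 30.4% called over all tested genes (17.2% higher and 13.3% lower). The classes are small, and differences between them were not tested. Of the 7 tested fibril-associated collagens 4 changed, with Col20a1 higher and Col9a1, Col19a1 and Col22a1 lower. The call of Col19a1 held in only 4 of 16 fits with 1 library left out. Of 10 tested fibrillar genes 1 changed (Col24a1, lower), of 3 transmembrane genes 1 changed (Col23a1, higher), and the only anchoring fibril gene, Col7a1, was lower. None passed the threshold among 6 genes of the basement membrane network, 5 of the beaded filaments, 2 multiplexins, 2 of the hexagonal networks and 2 of other structure in edgeR, where 1 gene of these classes (Col26a1) had an unadjusted p under 0.05. Over all tested genes 5507 of 13666 had an unadjusted p under 0.05. DESeq2 and limma-voom called none of these 17 genes of the 5 classes either.

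Col9a1 (chromosome 1, 24177610 to 24252684, plus strand, build mm10 as are all gene positions here) encodes a fibril-associated collagen best known from cartilage. It had the largest change among the 38 genes that passed the filter on low counts. Every Tg library held only 2 to 7 counts of it, so it passed that filter through its WT libraries. Its call and its rank are therefore not independent of the filter. Its level was 0.0727, 0.151, 0.246 and 0.124 CPM in Tg females, against 1.24, 0.260, 0.907 and 0.717 CPM in WT females. It was 0.253, 0.127, 0.076 and 0.295 CPM in Tg males, against 0.936, 1.76, 1.38 and 1.02 CPM in WT males. All Tg values lay below those of WT of the same sex, but in females the gap came to 7 counts in Tg female 3 against 5 counts in the shallower WT female 2. The gene fell by 2.12 on the log2 scale (SE 0.283, adjusted p = 3.39e-05), with 33 counts in all Tg libraries together and 190 in all WT libraries together. Its partner chains Col9a2 and Col9a3 were among the untested genes, at 0.263 ± 0.0864 CPM in Tg and 0.144 ± 0.123 CPM in WT for Col9a2, and 0.281 ± 0.181 CPM in Tg and 0.228 ± 0.133 CPM in WT for Col9a3 (SD, n = 8 each). Of 12 cartilage and bone cell markers only 3 were tested, and the summed level of the 10 in the files was 2.27 to 3.58 CPM in Tg and 1.55 to 3.59 CPM in WT.

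Col7a1 (chromosome 9, 108953586 to 108984875, plus strand) encodes the collagen of the anchoring fibrils best known from skin. It had 20.6, 22.9, 19.9 and 19.3 CPM in Tg females, against 32.7, 30.3, 24.5 and 37.6 CPM in WT females. Tg males had 24.2, 23.9, 19.3 and 24.9 CPM, against 26.3, 46.4, 51.2 and 49.1 CPM in WT males. WT male 1, an adipocyte-rich library, stood far below the other WT males and just above the Tg males. Averaged over the sexes Col7a1 fell by 0.75 on the log2 scale (SE 0.123, adjusted p = 0.000251), and it fell by 0.84 without the 4 adipocyte-rich libraries.

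Col20a1 (chromosome 2, 180986535 to 181018363, plus strand), a fibril-associated collagen, was higher in Tg. It had 7.37, 7.18, 6.84 and 8.08 CPM in Tg females, against 4.19, 5.83, 3.63 and 6.45 CPM in WT females. Tg males had 6.15, 7.07, 5.55 and 6.97 CPM, against 3.61, 3.48, 4.95 and 3.31 CPM in WT males. Within each sex every Tg library was above every WT library. The log2 fold change was 0.64 (SE 0.121, adjusted p = 0.000789).

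Col22a1 (chromosome 15, 71795795 to 72034227, minus strand) encodes a collagen of the myotendinous junction, where muscle fibres meet tendon. Levels were 30.9, 32.9, 29.0 and 19.6 CPM in Tg females, against 26.4, 35.8, 38.9 and 47.8 CPM in WT females. In Tg males they were 14.2, 14.5, 14.4 and 19.7 CPM, against 17.6, 44.7, 27.4 and 46.1 CPM in WT males. The genotypes overlapped in both sexes, in males only through WT male 1 and Tg male 4. Col22a1 fell by 0.76 on the log2 scale (SE 0.192, adjusted p = 0.00795), and by 0.92 without the 4 adipocyte-rich libraries. In the same mice 11 of 14 neuromuscular and myotendinous junction genes were higher and 1 lower in Tg, against 17.2% higher and 13.3% lower over all tested genes. Their summed level was 679 to 819 CPM in Tg and 435 to 507 CPM in WT. The list mixes genes of both junctions, which were not counted apart.

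Col24a1 (chromosome 3, 145292472 to 145552011, plus strand) encodes a fibrillar collagen best known from bone. It had 9.84, 10.1, 14.5 and 13.9 CPM in Tg females, against 21.6, 15.6, 24.8 and 21.4 CPM in WT females. Tg males had 11.6, 16.3, 13.5 and 13.9 CPM, against 9.05, 25.7, 17.8 and 18.4 CPM in WT males. All Tg females were below all WT females, while WT male 1 was below every Tg male. Col24a1 fell by 0.57 on the log2 scale (SE 0.172, adjusted p = 0.0204), and it fell by 0.81 without the 4 adipocyte-rich libraries.

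The remaining calls were close to the threshold. Col23a1 (chromosome 11, 51289920 to 51583918, plus strand) encodes a transmembrane collagen. It had 1.89, 2.46, 3.37 and 2.89 CPM in Tg females and 2.01, 3.02, 1.60 and 1.05 CPM in WT females, and 2.68, 3.01, 3.08 and 3.54 CPM in Tg males and 1.96, 2.57, 2.01 and 2.07 CPM in WT males. The male groups did not overlap and the female groups did, and the log2 fold change was 0.47 (SE 0.172, adjusted p = 0.0488). Col19a1 (chromosome 1, 24261890 to 24587472, minus strand) encodes a fibril-associated collagen of basement membrane zones. It had 1.60, 1.51, 1.26 and 1.69 CPM in Tg females and 2.48, 2.55, 2.51 and 2.15 CPM in WT females, and 1.70, 1.27, 2.20 and 2.46 CPM in Tg males and 2.32, 2.24, 2.14 and 1.51 CPM in WT males. Here the female groups did not overlap and the male groups did, and the gene fell by 0.38 on the log2 scale (SE 0.138, adjusted p = 0.0499). Without each library in turn Col23a1 was called in 3 of 16 fits and Col19a1 in 4 of 16, and without the 4 adipocyte-rich libraries Col19a1 was not called (adjusted p = 0.157). The other 5 genes were called in all 16.

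**Figure D3:**
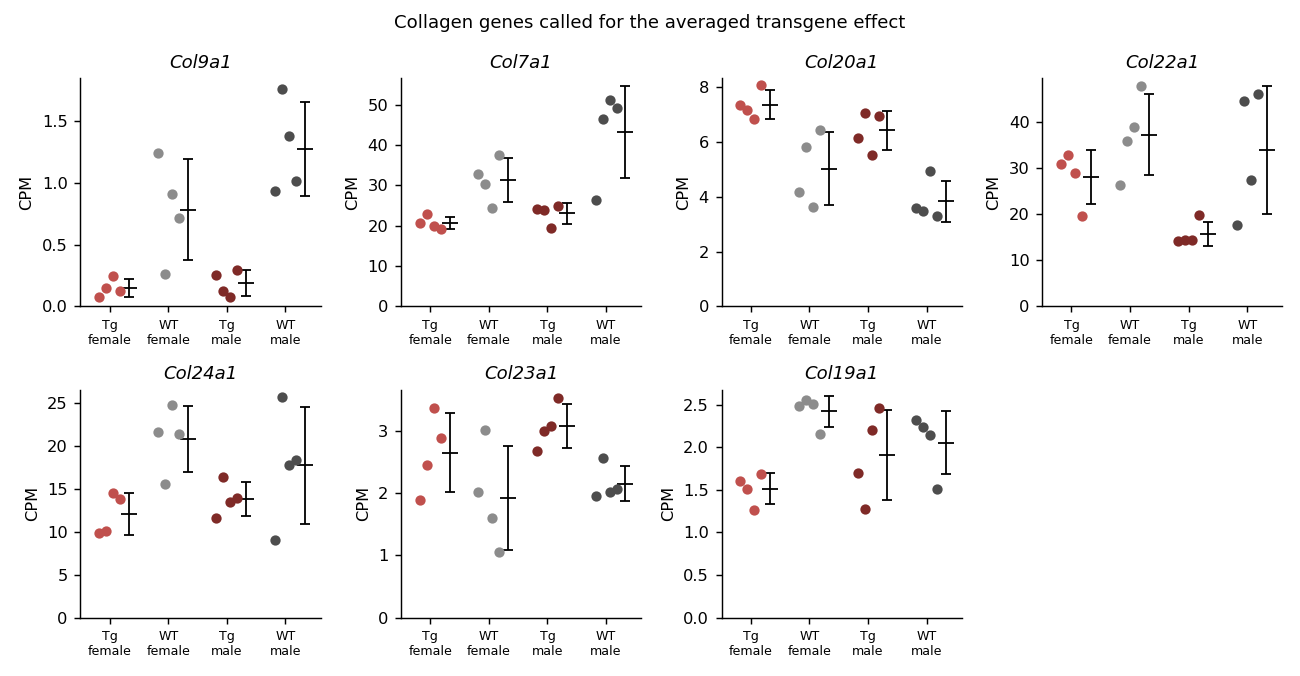
CPM of the 7 collagen genes called for the averaged effect (vertical axes, starting at 0) in the 4 groups, Tg left of WT within each sex. Points are libraries, and bars are the group mean and SD (n = 4). Col9a1, Col7a1 and Col20a1 show no overlap within either sex.

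The abundant fibrillar chains did not pass the threshold. Col1a1, a chain of type I collagen, had 52.2 to 153 CPM in Tg with a median of 105, against 52.6 to 165 CPM in WT with a median of 84.8. Its log2 fold change was 0.23 (95% interval -0.30 to 0.75, adjusted p = 0.515). Its partner Col1a2 had 167 ± 58.7 CPM in Tg and 164 ± 55.7 CPM in WT (SD, n = 8 each), with a log2 fold change of 0.01 (-0.52 to 0.54). Col3a1 had 109 to 367 CPM in Tg with a median of 213, against 110 to 449 CPM in WT with a median of 260. Its log2 fold change was -0.35 (-0.94 to 0.23, adjusted p = 0.354). The libraries of each genotype covered nearly the same range for Col1a1 and Col1a2, while for Col3a1 the WT range reached higher. In females Col3a1 had 109 to 213 CPM in Tg and 110 to 449 CPM in WT. Its log2 fold change was -0.89 in females (edgeR adjusted p = 0.127) and 0.18 in males. The averaged intervals leave room for changes of up to 0.94 on the log2 scale. Of the type V chains, which control fibril diameter, Col5a3 had 49.9 ± 8.11 CPM in Tg and 62.5 ± 23.1 CPM in WT, with a log2 fold change of -0.33 (-0.79 to 0.13), and Col5a2 had a log2 fold change of -0.40 (-0.82 to 0.03, adjusted p = 0.142).

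The chains of the basement membrane and the beaded filaments did not pass it either. Col4a1 had 178 ± 30.4 CPM in Tg and 195 ± 62.1 CPM in WT, a log2 fold change of -0.14 (95% interval -0.50 to 0.23), and Col4a2 of -0.06 (-0.38 to 0.26). The rarer type IV chains, found in fewer tissues, had log2 fold changes from -0.11 (Col4a4) to 0.27 (Col4a6). Col6a1 had 78.8 ± 18.2 CPM in Tg and 84.8 ± 21.7 CPM in WT, a log2 fold change of -0.11 (-0.47 to 0.24). Its partners Col6a2 and Col6a3 had -0.09 (-0.48 to 0.31) and -0.09 (-0.44 to 0.27). The multiplexin Col15a1 had 45.87 ± 7.996 CPM in Tg and 42.3 ± 17.5 CPM in WT, with a log2 fold change of 0.11 (-0.39 to 0.62). Without the 4 adipocyte-rich libraries it was called higher, at 0.54 (adjusted p = 0.0123). Col18a1, whose protein releases endostatin, had 10.9 ± 2.05 CPM in Tg and 12.1 ± 5.07 CPM in WT (all SD, n = 8 each).

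Among the less abundant genes the values were spread widely. Col11a2, a fibrillar collagen of cartilage, had 7.98 ± 1.80 CPM in Tg and 5.50 ± 1.67 CPM in WT. Its log2 fold change of 0.52 missed the threshold (adjusted p = 0.0599) and passed it without the 4 adipocyte-rich libraries, as it did with DESeq2. Col8a1, a network collagen of vessel walls, had 4.91 ± 1.22 CPM in Tg and 3.87 ± 0.950 CPM in WT, and Col26a1 had 0.468 ± 0.113 CPM in Tg and 0.317 ± 0.148 CPM in WT. The fibril-associated collagens of tendon and fascia, Col12a1 and Col14a1, had 8.70 ± 4.08 and 8.88 ± 5.56 CPM in Tg, against 10.2 ± 4.69 and 14.2 ± 9.71 CPM in WT. Col16a1 had 5.59 ± 1.44 CPM in Tg and 5.98 ± 2.41 CPM in WT, and the cartilage collagen Col27a1 had 3.21 ± 1.02 CPM in Tg and 3.34 ± 0.943 CPM in WT. Col13a1, a transmembrane collagen of the neuromuscular junction, had 1.10 ± 0.245 CPM in Tg and 1.05 ± 0.333 CPM in WT. Col28a1, which in mice surrounds Schwann cells, had 1.16 ± 0.238 CPM in Tg and 1.41 ± 0.584 CPM in WT, and the hemidesmosome collagen Col17a1 had 0.412 ± 0.181 CPM in Tg and 0.512 ± 0.347 CPM in WT (all SD, n = 8 each).

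The balance between collagen genes was compared within each library, since a ratio of 2 genes within a library does not depend on its depth. Some ratios were between chains of the same collagen type. Others (Col3a1 to Col1a1, Col15a1 to Col18a1 and Col4a1 to Col1a1) were between genes of different types and do not describe partner chains. Of 8 ratios, 4 differed between genotypes in an exact two-sided permutation test of log2 ratios within the sexes, adjusted over the 8 ratios (4900 arrangements, smallest p 0.000408). They were Col1a1 to Col1a2, Col3a1 to Col1a1, Col5a1 to Col5a2 and Col15a1 to Col18a1. A ratio does not show which of its 2 genes moved, and none of these genes was called by itself for the averaged effect.

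The ratio of Col1a1 to Col1a2 counts was 0.667, 0.712, 0.586 and 0.654 in Tg females, against 0.639, 0.633, 0.444 and 0.619 in WT females. It was 0.614, 0.645, 0.555 and 0.668 in Tg males, against 0.527, 0.472, 0.507 and 0.510 in WT males. All Tg males were above all WT males, and the female groups overlapped. The Tg minus WT difference was 0.24 on the log2 scale (p = 0.00612, adjusted p = 0.0359), with 0.30 in males (p = 0.0286, the smallest possible for 1 sex) and 0.18 in females (exact p = 0.286).

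The ratio of Col3a1 to Col1a1 was 2.09, 1.56, 1.89 and 1.70 in Tg females, against 3.84, 2.72, 3.52 and 2.097 in WT females. In males it was 2.79, 2.28, 2.40 and 1.61 in Tg, against 3.85, 2.06, 3.35 and 2.25 in WT. All Tg females were below all WT females, by a margin of under 0.01 between the nearest libraries, and the male groups overlapped. The difference was -0.52 on the log2 scale (exact permutation p = 0.0151, adjusted p = 0.0359), with -0.72 in females (exact p = 0.0286) and -0.32 in males (exact p = 0.286). Without the 4 adipocyte-rich libraries it was -0.37 (adjusted p = 0.197).

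The ratio of Col5a1 to Col5a2 had a geometric mean of 1.10 in Tg and 0.917 in WT, and the difference was 0.27 (exact permutation p = 0.0122, adjusted p = 0.0359). For Col15a1 to Col18a1 the means were 4.22 in Tg and 3.49 in WT, and the difference was 0.27 (exact permutation p = 0.018, adjusted p = 0.0359). For both, the Tg and WT ranges overlapped in each sex. Without the 4 adipocyte-rich libraries these differences kept their size, at 0.27 and 0.26, but not the call (both adjusted p = 0.177), while Col1a1 to Col1a2 was still called. With each library left out in turn, the 4 ratios were called in 11 (Col1a1 to Col1a2), 7 (Col3a1 to Col1a1), 8 (Col5a1 to Col5a2) and 5 (Col15a1 to Col18a1) of 16 fits. Col1a1 to Col1a2 lost its call without Tg female 1, 2 or 4, Tg male 4 or WT male 3. The other 4 ratios did not pass the threshold: Col4a1 to Col4a2 differed by -0.06 (adjusted p = 0.392), Col6a1 to Col6a2 by -0.04 (0.408), Col6a3 to Col6a1 by 0.04 (0.493) and Col4a1 to Col1a1 by -0.34 (0.197).

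**Figure D4:**
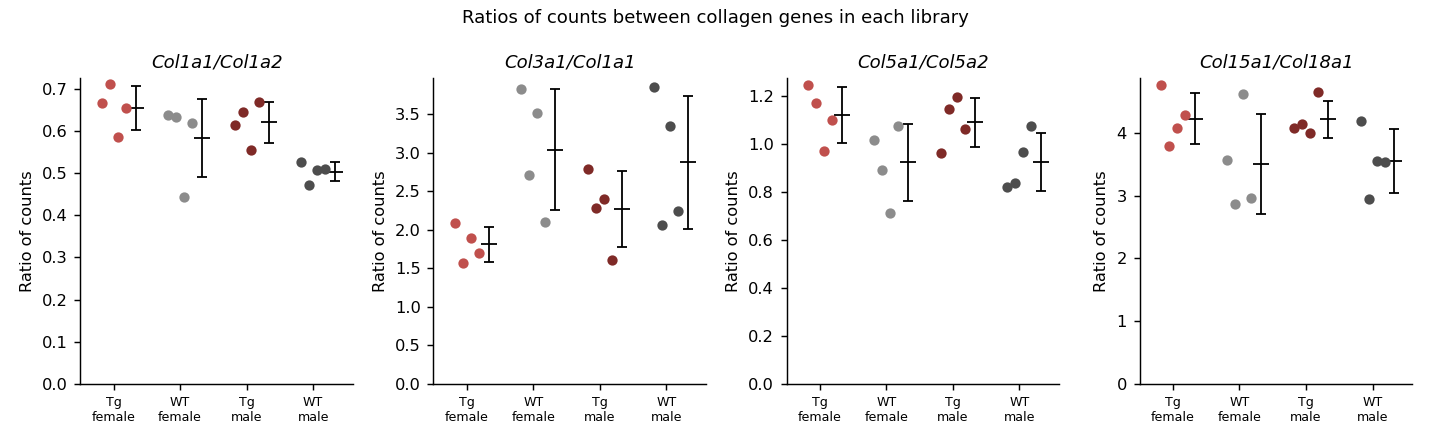
Ratio of counts between collagen genes in each library (vertical axes, starting at 0) for the 4 ratios called, Tg left of WT within each sex. Points are libraries, and bars are the group mean and SD (n = 4). All Tg males lie above all WT males for Col1a1/Col1a2, and all Tg females below all WT females for Col3a1/Col1a1.

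The same comparison was made within each sex. In females 5 collagen genes were called (against 17.7% of all genes, 10.1% higher and 7.57% lower), with Col20a1 higher and Col7a1, Col9a1, Col19a1 and Col24a1 lower in Tg. In males 5 were called (against 18.2% of all genes, 9.85% higher and 8.39% lower), with Col20a1 and Col26a1 higher and Col7a1, Col9a1 and Col22a1 lower in Tg. Col26a1 had 0.510 ± 0.130 CPM in Tg males and 0.240 ± 0.0735 CPM in WT males (SD, n = 4 each), a log2 fold change of 0.89 (adjusted p = 0.0485) that rests on 4 to 16 counts per library and was lost in 13 of 16 fits without 1 library. The female calls without the 4 adipocyte-rich libraries were Col23a1 (higher) and Col7a1, Col9a1 and Col24a1 (lower), so that Col20a1 and Col19a1 were lost (adjusted p = 0.188 and 0.144). The male calls without them were Col20a1 (higher) and Col7a1, Col9a1, Col22a1 and Col24a1 (lower), with Col26a1 lost. In females DESeq2 also called Col5a2 lower, and the fit with an adipocyte covariate also called Col22a1 lower. The female count depended on single libraries. It was 1 without Tg female 1 or WT female 1, 2 without Tg female 2, Tg female 3 or WT female 3, and 3 without Tg female 4. Without WT female 4 it was 7, and Col3a1, Col4a1, Col5a2 and Col6a3 were then called lower in Tg females.

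Whether the transgene effect differed between the sexes was tested directly as an interaction, the effect in males minus that in females. In edgeR it called 0 of 38 collagen genes, against 0.00732% of all genes, and DESeq2 and limma-voom also called 0. At an unadjusted p under 0.05 edgeR had 0 of 38, against 1015 of 13666 over all genes. The interaction estimate was positive for 32 of 38 collagen genes, against 7454 of 13666 over all genes. Its median was 0.42 for the collagen genes, against 0.02 over all genes. This went with a median Tg minus WT change of 0.17 in males and -0.31 in females, where all genes had 0.03 and -0.03. All 6 genes of the basement membrane network had negative estimates in females (median -0.26) and positive ones in males (median 0.22). Without the 4 adipocyte-rich libraries, 3 of them female, the female median was -0.05 and the interaction median 0.18. With the adipocyte covariate these medians were -0.17 and 0.33. They also moved with single libraries, to -0.08 and 0.23 without WT female 2 alone, and to -0.45 and 0.51 without WT female 4 alone. For Col3a1 the interaction estimate was 1.07 (95% interval -0.11 to 2.24), and the gene had 266 ± 69.95 CPM in Tg males and 235 ± 89.5 CPM in WT males, and 160 ± 45.4 CPM in Tg females and 296 ± 143 CPM in WT females (SD, n = 4 each). Interaction estimates were also positive for 15 of 15 fibroblast markers (median 0.65), 13 of 15 adipocyte markers (median 0.86) and 12 of 12 macrophage markers (median 1.13). They were negative for 9 of 10 tendon markers (median -0.30) and 12 of 14 muscle fibre markers (median -0.15). The part of these cells in the collagen values was not tested. Genes of 1 family or marker list can move together across libraries, so these counts of signs are not counts of independent observations.

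Males and females of the same genotype were compared last. In WT, edgeR called 0 of 38 collagen genes for male minus female (against 3.67% of all genes, 2.01% higher and 1.65% lower), DESeq2 1 (Col6a6) and limma-voom 0. At an unadjusted p under 0.05 edgeR had 5 of the 38, against 2186 of 13666 over all genes. In Tg edgeR called 0 (against 0.527% of all genes, 0.351% higher and 0.176% lower), DESeq2 2 (Col4a3 and Col6a6) and limma-voom 0. There 5 of the 38 had an unadjusted p under 0.05 in edgeR, against 1286 of 13666 over all genes. Col6a6, a further type VI chain, had male minus female log2 differences of 1.07 (95% interval 0.38 to 1.76, adjusted p = 0.0783) in WT and 1.26 (0.58 to 1.95, adjusted p = 0.119) in Tg. Col4a3 and Col4a4, which share a trimer, both had 0.96 in Tg (adjusted p = 0.175 and 0.177), and 0.56 and 0.59 in WT. Without the 4 adipocyte-rich libraries, Col7a1 was called higher in WT males and Col22a1 lower in Tg males.

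Across the mice, levels of the main chains of types I, IV and VI were closely correlated within each type, while rarer chains were not always so: Col4a1 had r = 0.08 with Col4a3 and -0.07 with Col4a4 (a description, no test). Group means were removed from log2 CPM, so that the correlations below describe differences between mice of the same sex and genotype over 16 libraries. In all, 27 relations were computed, with permutation p-values (100000 resamples within the groups, smallest possible 1e-05) adjusted over them. Col6a1 and Col6a2 had Pearson's r = 0.982 (p = 1e-05, adjusted p = 0.000135) and Spearman's rho = 0.953 (p = 1e-05). Col4a1 and Col4a2, the genes with the shared promoter stretch, had r = 0.966 (p = 2e-05, adjusted p = 0.00018) and rho = 0.965 (p = 2e-05). Col1a1 and Col1a2 had r = 0.956 (p = 0.00011, adjusted p = 0.000594) and rho = 0.956 (p = 0.0001). Without the 2 libraries farthest from the median of the gene named first, these were r = 0.968, 0.954 and 0.919, and all 3 stayed past the threshold. Col6a3 followed Col6a1 with r = 0.944 (permutation p = 1e-05) and rho = 0.918 (p = 1e-05), and with r = 0.941 without the 2 farthest libraries.

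Chains of different fibrillar and beaded collagens were correlated too. Col1a1 correlated with Col6a1 at r = 0.942 (permutation p = 0.00011, adjusted p = 0.000594; rho = 0.915, p = 0.00028) and with Col5a1 at r = 0.890 (permutation p = 0.00021, adjusted p = 0.00081; rho = 0.894, p = 0.00023). It correlated with Col3a1 at r = 0.812 (permutation p = 0.00153, adjusted p = 0.00454; rho = 0.791, p = 0.00205). These 3 were r = 0.892, 0.826 and 0.701 without Tg female 1 and WT female 4, and adjusted p stayed under 0.05. With Col5a2, Col14a1 and Col12a1 the correlation was r = 0.818, 0.831 and 0.705 (adjusted p = 0.00454, 0.00307 and 0.0202; permutation p = 0.00168, 0.00091 and 0.00928; rho = 0.797, 0.850 and 0.729, p = 0.00204, 0.00025 and 0.00461). Without those 2 libraries these were 0.665, 0.669 and 0.598 over 14 libraries, with the same sign but no longer past the threshold (adjusted p = 0.0597, 0.0744 and 0.137). The call for Col3a1 was close to it too (adjusted p = 0.0465).

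For basement membrane collagens the values with type I were lower, and the difference between correlations was not tested. Col1a1 had r = 0.565 with Col4a1 (permutation p = 0.0746, adjusted p = 0.118; rho = 0.459, p = 0.131) and r = 0.575 with Col15a1 (permutation p = 0.0585, adjusted p = 0.0988; rho = 0.603, p = 0.0352), and neither passed the threshold. Without the 2 farthest libraries they were 0.371 and 0.320, and without the 4 adipocyte-rich libraries 0.340 and 0.784, the second then past the threshold (adjusted p = 0.036). For relations with markers the 2 libraries left out went by the marker list and not by the collagen gene. Col4a1 was correlated with the adipocyte markers, at r = 0.837 (permutation p = 0.00018, adjusted p = 0.00081; rho = 0.891, p = 0.00047), with r = 0.811 (adjusted p = 0.0106) without WT female 2 and WT male 1. Without the 4 adipocyte-rich libraries it was r = 0.606 over 12 libraries (adjusted p = 0.0825). For Col1a1 and Col6a1 the correlation with these markers was r = 0.260 and 0.412 (permutation p = 0.396 and 0.166). With the fibroblast markers the values were r = 0.707 for Col1a1, 0.632 for Col4a1 and 0.811 for Col6a1 (adjusted p = 0.0202, 0.0242 and 0.00493; permutation p = 0.00971, 0.0125 and 0.00201; rho = 0.679, 0.547 and 0.765, p = 0.0152, 0.0427 and 0.00472). Without Tg female 1 and WT female 2 none of them passed (r = 0.484, 0.571 and 0.683). Endothelial, mural and tendon markers passed for none of the 3 genes, with Col4a1 and the endothelial markers the nearest (r = 0.785, permutation p = 0.0377, adjusted p = 0.0678; rho = 0.712, p = 0.0519), and that value was near 0 (-0.00099) without the 4 libraries.

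As a description with no test, the 11 genes of types I, III, IV, V and VI with a mean of at least 10 CPM, a set chosen after their values were seen, had a median r of 0.844 among themselves (0.370 to 0.982). Over all 703 collagen pairs the median was 0.365. Of the genes that changed with the transgene, Col23a1 had the highest median r with the 11, at 0.62 (0.38 without the 4 adipocyte-rich libraries). Col22a1 had the lowest, at -0.51 (-0.57 without them), with a lowest value of -0.86 for Col5a3. For Col7a1, Col9a1, Col24a1, Col20a1 and Col19a1 the median lay between -0.25 and 0.13. Without the 4 adipocyte-rich libraries it was -0.37 for Col7a1, -0.18 for Col20a1, -0.08 for Col19a1, -0.02 for Col9a1 and 0.08 for Col24a1. All values come from the same libraries and share their depth and scaling.

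**Figure D5:**
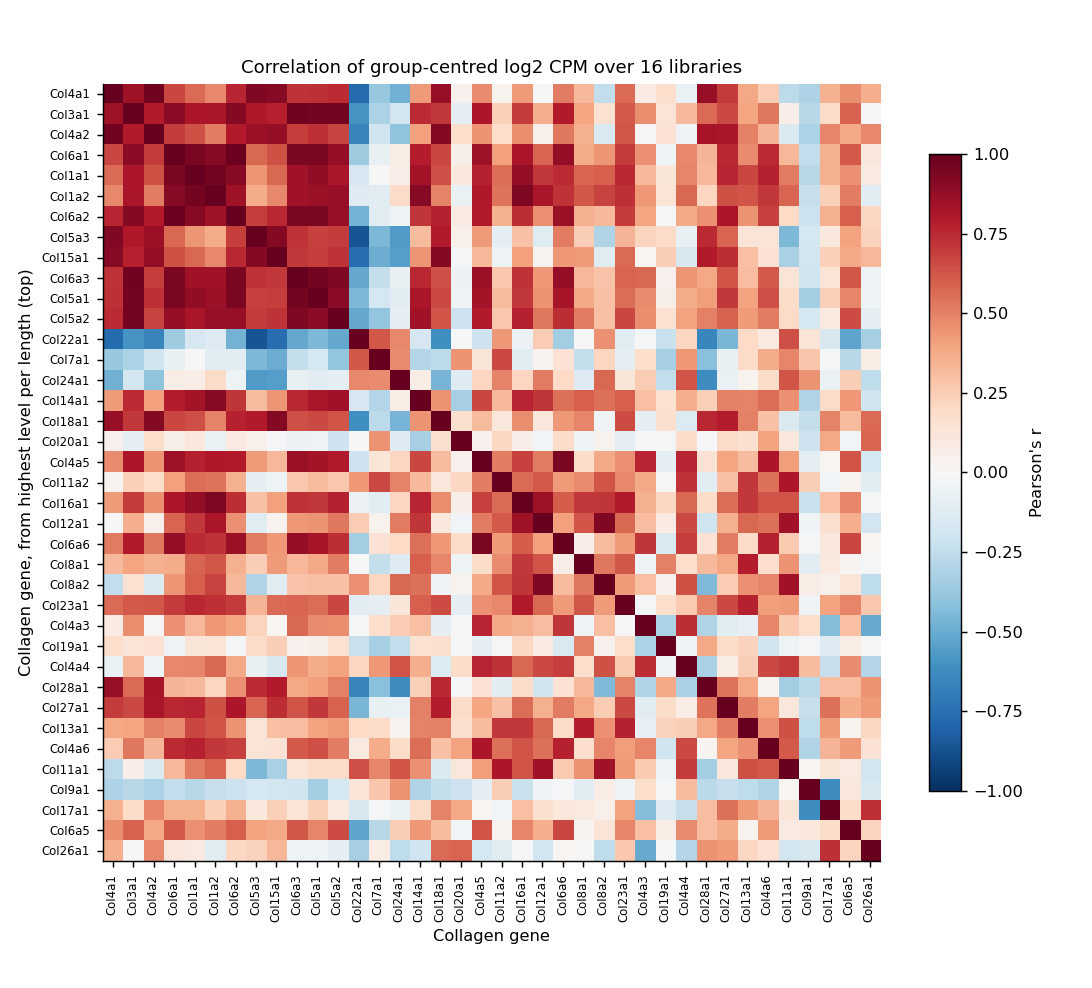
Pearson's r between group-centred log2 CPM of all 38 tested collagen genes over 16 libraries, ordered from the highest level per length (top left). A block of high r joins the abundant chains, and the row of Col22a1 is blue against most of them, down to -0.86 with Col5a3.

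Genes that make, break down and bind collagen were counted from lists. Of 33 tested genes for folding, processing and crosslinking, 2 were higher and 5 lower in Tg, with a median log2 fold change of -0.04. That is 21.2% of the list, against 30.4% of all tested genes. Among them the prolyl 4-hydroxylase subunits, which stabilise the collagen helix, moved apart. P4ha2 fell by 0.43 on the log2 scale, to 24.2 ± 1.97 CPM in Tg against 32.7 ± 2.10 CPM in WT, and P4ha1 fell by 0.40. P4hb, the shared subunit that also serves as protein disulfide isomerase, rose by 0.35, to 258 ± 18.2 CPM in Tg against 202 ± 15.3 CPM in WT (SD, n = 8 each). The adjusted p was 5.22e-05 for P4ha2, 0.000891 for P4ha1 and 0.000334 for P4hb. Tmem38b, an ion channel of the endoplasmic reticulum needed for collagen folding, fell by 0.32 (adjusted p = 0.000744).

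Of 16 tested genes of collagen breakdown, 1 was higher and 3 lower (also a smaller share than over all genes), with a median of -0.20. The protease gene Mmp11 rose by 0.52 and Mmp15 fell by 0.32, and the protease inhibitor genes Timp3 and Timp2 fell by 0.31 and 0.62 on the log2 scale. Of 31 other matrix proteins 2 were higher and 2 lower (12.9% called, median -0.25): Sparcl1 fell to 121 ± 12.2 CPM in Tg against 174 ± 23.4 CPM in WT, Aspn fell by 0.65, and the elastic fibre genes Fbln5 and Mfap4 rose by 0.52 and 0.88. Of 16 basement membrane genes outside the collagens only Lamb2, a laminin chain of the synaptic basement membrane, changed (6.25%), at 179 ± 16.5 CPM in Tg against 147 ± 20.3 CPM in WT (SD, n = 8 each). Of 12 collagen receptor genes 1 was lower, the integrin gene Itgb1 (-0.26), and all 12 estimates were negative (median -0.27, 8.33% called). Over all genes 7072 of 13666 estimates were negative.

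Of 19 genes of TGF-beta signalling, the pathway known to drive collagen transcription in fibroblasts, 1 was higher and 5 lower in Tg, with a median of -0.22. These calls are 31.6% of the list, close to the 30.4% of all tested genes. Smad3, a transcription factor that carries the signal to the nucleus, had 44.0 ± 6.86 CPM in Tg and 120 ± 25.9 CPM in WT (SD, n = 8 each), and fell by 1.45 on the log2 scale (SE 0.135, adjusted p = 1.14e-06). The ligand gene Tgfb2 rose by 0.82, and Smad2 and the coreceptor gene Tgfbr3 fell by 0.27 and 0.50.

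Markers of the cells that could supply collagen RNA were counted beside these results. Of 15 tested fibroblast markers 1 was lower (Lsp1), 14 had negative estimates, the median was -0.37, and the summed level was 625 to 1839 CPM in Tg and 1091 to 2290 CPM in WT. In females, where the collagen median was -0.31, 3 of these 15 were called lower, 15 were negative and 10 had an unadjusted p under 0.05, with a median of -0.74. Macrophage markers in females were negative for 12 of 12, with a median of -0.995, and edgeR called 0 of them, with 10 at an unadjusted p under 0.05. In males the medians were -0.07 for fibroblast and 0.08 for macrophage markers. Over all 13666 genes 7072 estimates were negative for the averaged effect and 7306 in females. An unadjusted p under 0.05 was found for 5507 of them for the averaged effect and for 4407 in females. For the averaged effect 17.2% were called higher and 13.3% lower, and in females 10.1% and 7.57%. Genes of 1 marker list can move together, so counts within a list are not independent observations. Of 15 adipocyte markers, 10 tendon markers, 12 endothelial markers, 10 mural markers and 12 macrophage markers, edgeR called 0 for the averaged effect, with 1 (an endothelial marker) at an unadjusted p under 0.05. The medians were -0.80 for adipocytes, -0.15 for tendon, 0.02 for endothelium, -0.10 for mural cells and -0.46 for macrophages. The summed levels in Tg and WT were 216 to 1869 and 210 to 3765 CPM for adipocytes, 113 to 413 and 92.3 to 421 CPM for tendon, 442 to 524 and 393 to 583 CPM for endothelium, 739 to 816 and 757 to 957 CPM for mural cells, and 52.6 to 269 and 93.1 to 294 CPM for macrophages. Of 9 Schwann cell and perineurial markers 1 was higher (Slc2a1), with sums of 76.5 to 115 CPM in Tg and 44.5 to 130 CPM in WT. Every marker in the files had counts in at least 1 library. The part of these cells in the collagen values was not tested beyond the correlations above.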

How the data were processed

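Messenger RNA of 16 snap-frozen quadriceps was sequenced in pairs from stranded libraries, per the labels' protocols. Tools named in the submitters' processing notes are bcl2fastq, TopHat2, Bowtie2 and cutadapt 1.2.1, with build mm10. Which counter and annotation were used, and whether counting used strand, is not given in the sources used here. The values deposited by the authors were taken as estimated counts (expected counts) per gene symbol: 95.02% of nonzero values are within 0.01 of a whole number, and library totals differ. They were rounded, which moved none by more than 0.5.

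CPM are counts scaled with TMM factors (0.887 to 1.105). The test was edgeR 4.0.16 in R 4.3.3 (filterByExpr with minimum count 10 and minimum total 15, 13666 genes, 1 mean per group, robust quasi-likelihood, biological coefficient of variation 0.201). Each SE of a log2 fold change was computed as its absolute value divided by the square root of the test's F. Intervals are at 95%, built from these SEs with 12 residual degrees of freedom. Fold changes used a prior count of 2, so SEs and intervals are approximate, most of all for genes with few counts such as Col9a1. DESeq2 1.42.0, limma 3.58.1 (voom), other scalings and filters, a model without interaction, an adipocyte covariate and left-out libraries were the alternatives. Log2 values in ratios and correlations used a pseudocount of 0.5. The test code was tested on simulated data. Positions and exon lengths come from GENCODE M21, to which all 44 symbols matched, and promoters from RefSeq.

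The labels give 4 muscles per sex and genotype, and p-values measure the spread between these libraries. No pair looked like the same library (lowest median chi-square per gene 1.37, against 0.455 for repeats). Members, gene lists, ratios and the set of adipocyte-rich libraries were chosen with earlier results of these data known. The rule for named genes took every collagen gene called for the averaged, female, male or interaction effect, the member with the highest mean CPM of each tested type, and from each list up to 4 called genes with the smallest adjusted p. Other collagen genes named in the text were chosen after their values were seen. Exons of Col4a1 and Col4a2 overlap by 22 bases on opposite strands and those of Col22a1 overlap the antisense gene Gm16308. On the same strand, exons of Col20a1 overlap the gene BX649560.1, those of Col7a1 the microRNA gene Mir711 and those of Col3a1 the microRNA gene Gm47302. Some reads of these genes may not be told apart. Exon overlaps of other collagen genes were on opposite strands.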

Additional observations from a re-analysis of the deposited data

Results flagged for a closer look

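In 152 sets of 4 libraries (38 genes in 4 groups), 8 had a library apart from the other 3 by Dixon's test at the 95% level. Chance alone gives about 1 in 20 sets, which is close to this count. For genes called in the report, Col7a1 was lowest in Tg male 3 (19.3 CPM) and in WT male 1 (26.3 CPM), Col22a1 was highest in Tg male 4 (19.7 CPM) and Col19a1 was lowest in WT female 4 (2.15 CPM). Col13a1 was lowest in Tg male 2 (0.974 CPM) and highest in WT female 2 (1.77 CPM). Col14a1 was highest in Tg male 3 (17.3 CPM) and Col4a6 was highest in WT female 2 (2.08 CPM). WT male 1 and WT female 2 are among the adipocyte-rich libraries, whose part in these values was not tested.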

How the results depend on the processing

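Col9a1, Col7a1, Col20a1, Col22a1 and Col24a1 were called for the averaged effect, in the same direction, under every alternative that tested them, and Col9a1 was not tested with the filter of 1 CPM in 4 libraries. The averaged effect called 7 collagen genes, against 5 to 9 with 1 library left out, 5 with upper quartile factors or the 1 CPM filter, 6 with DESeq2-type size factors, without a filter, without the interaction or with the adipocyte covariate, 7 with limma-voom, and 8 with DESeq2 or without the 4 adipocyte-rich libraries. Of those 8 without the libraries, 6 were also called in all libraries. Col2a1 was called higher without the filter and in 6 of the 16 fits with 1 library left out, where it was tested. Female calls numbered 5, against 1 to 7 with 1 library left out. Male calls numbered 5, against 4 to 5 with 1 library left out and 3 with the 1 CPM filter.

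For male minus female in WT the count was 0, against 1 with DESeq2 (Col6a6), 1 without the adipocyte-rich libraries (Col7a1) and 0 to 1 with 1 library left out (1 without WT male 1, Col7a1). In Tg it was 0, against 2 with DESeq2, 1 with the covariate or without the adipocyte-rich libraries (Col22a1), and 0 to 1 with 1 library left out (1 without WT male 3, Col6a6). The cause of these changes was not tested.

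The log2 difference of Col3a1 to Col1a1 was -0.37 without the adipocyte-rich libraries, and -0.60 to -0.44 with 1 library left out. For Col1a1 to Col1a2, Col5a1 to Col5a2 and Col15a1 to Col18a1 it was 0.17 to 0.26, 0.21 to 0.31 and 0.23 to 0.34 with 1 library left out. Calls lost this way had adjusted p up to 0.0784. They were lost for Col3a1 to Col1a1 without any Tg female, WT female 1 or 2, Tg male 4, or WT male 1 or 3. For Col5a1 to Col5a2 this held without Tg female 1, 2 or 4, WT female 2, Tg male 4, or WT male 1, 2 or 3, and for Col15a1 to Col18a1 without any Tg female, WT female 1, 2 or 4, Tg male 4, or WT male 2, 3 or 4. Leaving out the adipocyte-rich libraries added a call for Col6a1 to Col6a2, at -0.10. Of 1326 values of single genes under alternatives, 78 lost the call and 15 gained it. In 40 the sign turned, all of genes not called in either fit (such as Col4a1, Col11a1, Col18a1 and Col28a1), and no called gene changed direction. No paired analysis was possible because the labels link no Tg mouse to a WT littermate and the replicate numbers follow accession order. The 6 untested genes, Col9a1 and Col26a1 are limited by depth.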

Other observations

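Several collagen genes lie side by side in the mouse genome, and their correlations over the 16 libraries are given as a description with no test. Col3a1 and Col5a2, which lie tail to tail on chromosome 1 with 24614 bases between them, had r = 0.957. Col15a1 and Col18a1, the multiplexins, lie on different chromosomes and had r = 0.916, and Col4a1 and Col15a1, also on different chromosomes, had r = 0.910. Col4a5 and Col4a6, head to head on the X chromosome with 1308 bases between their starts, had r = 0.811. Col4a3 and Col4a4, head to head with 71 bases between them, had r = 0.740. Col9a1 and Col19a1 were both lower in Tg muscle and lie tail to tail with 9205 bases between them, and had r = -0.01. Among the untested genes, Col2a1, the main fibrillar collagen of cartilage, had 69 counts in all Tg libraries together and 25 in all WT libraries together, at 0.359 ± 0.222 CPM in Tg and 0.141 ± 0.0614 CPM in WT (SD, n = 8 each).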
